A study of Mus musculus with 8 samples.

Results

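Integrins are the paired alpha and beta chains by which cells hold on to the extracellular matrix, and laminins are the alpha, beta and gamma chain trimers of the basement membrane that surrounds each myofiber. The rows of the mouse TPM table whose names start with *Itga*, *Itgb* or *Lama*, *Lamb* and *Lamc* followed by a chain symbol were taken as one set, without the *Itgb1* binding proteins *Itgb1bp1* and *Itgb1bp2*, which gave 39 of the 41709 rows. Of these, 18 encode integrin alpha chains, 10 carry an integrin beta name and 11 encode laminin chains. The name rule also takes *Itgb3bp*, which encodes a centromere protein that binds an integrin tail and is no chain itself. It was kept in the counts.

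The muscles were tibialis anterior (TA) muscles of male C57BL/6J mice aged 3 months, collected 7 days after electroporation, and the transcriptome of 4 muscles with non-targeting (NT) siRNAs was compared with that of 4 muscles with *Uba1* siRNAs. Both legs received hyaluronidase and 1500 pmol of an siRNA SMARTpool, a mixture of siRNAs that was non-targeting in the NT legs and directed against *Uba1* in the others. The titles place every NT muscle in a right leg and every *Uba1* muscle in a left leg, so leg and siRNA cannot be told apart. The titles also give the same animal number to 1 right and 1 left muscle, and these pairs are called mouse 1 to mouse 4 here. The treatment tags of the *Uba1* muscles count up from UBA1 to UBA4, whereas their titles and descriptions name UBA1 for all of them, and the latter were followed. The RNA was taken from whole muscles, so that fewer cells of a type and less RNA per cell cannot be told apart in any value below.

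*Uba1*, which encodes the main E1 enzyme of ubiquitin activation, lies at chrX:20524493-20549418 on the plus strand of GRCm39. It was at 60.6, 59.0, 63.6 and 59.1 TPM in the NT muscles of mouse 1 to 4 and at 18.1, 6.77, 15.8 and 23.1 TPM in their *Uba1* muscles. All 4 *Uba1* muscles were below all NT muscles, and the log2 fold change (log2FC) was -1.98 (SE 0.290), with an adjusted p of 0.0527 in limma without and 0.0278 with the mouse as a block. Over the 11530 genes that passed the filter, which asked for 1 TPM in 4 of the 8 muscles, the median log2FC was 0.11 and 81.8% of genes had a log2FC above 0. A log2FC near 0.11 in the deposited TPM was thus an average difference. Scaling each muscle by the median ratio of its genes brings the median near 0 by construction. It gave a share above 0 of 50.7% and a median of 0.0016. Mitochondrially encoded RNA held 42.1–45.7% of the TPM in NT muscles and 39.9–50.3% in *Uba1* muscles. TPM sums to the same total in every muscle, and the sequencing depth behind a value is not given by the files.

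In adult muscle, integrin alpha 7 beta 1 and dystroglycan are the main receptors that tie the myofiber to laminin, mostly to trimers of the alpha 2, beta 1 or beta 2 and gamma 1 chains. Loss of laminin alpha 2 or of integrin alpha 7 causes congenital muscle disease. Other integrins bind fibronectin and vitronectin through the peptide motif RGD, bind collagens, or belong to leukocytes, and they also act in vessels, nerve and the interstitial cells of muscle.

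Of the members, 3 had *Uba1* muscles that did not overlap the NT muscles, and the promoter sequence upstream of their start is shown. *Itga5* was lower in this way, as were 1.01% of all genes tested. *Itgb5* and *Lamb2* were higher, as were 10.6% of all genes tested. The sequences were taken from RefSeq promoters of GRCm38.p6, placed on GRCm39 by exact match, and are written 5′ to 3′ on the strand of the gene. Capitals mark GC boxes, the letters GGGCGG on either strand. The *Itga5* promoter is chr15:103275271-103275468 on the minus strand, the *Itgb5* promoter chr16:33649785-33649987 on the plus strand and the *Lamb2* promoter chr9:108356811-108356934 on the plus strand, and each ends just before the annotated gene.
Itga5: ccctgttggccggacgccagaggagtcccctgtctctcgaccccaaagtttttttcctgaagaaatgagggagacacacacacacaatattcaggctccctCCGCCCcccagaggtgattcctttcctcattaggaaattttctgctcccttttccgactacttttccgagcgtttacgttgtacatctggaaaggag
Itgb5: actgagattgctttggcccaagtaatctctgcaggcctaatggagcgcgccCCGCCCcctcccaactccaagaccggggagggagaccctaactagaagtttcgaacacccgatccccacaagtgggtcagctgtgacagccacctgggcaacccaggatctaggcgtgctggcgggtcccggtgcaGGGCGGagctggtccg
Lamb2: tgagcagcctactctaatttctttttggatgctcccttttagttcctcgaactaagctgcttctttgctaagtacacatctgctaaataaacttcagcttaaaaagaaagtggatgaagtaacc

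In the full 250 bases upstream of the RefSeq start, *Itga5* held 2 GC boxes, of which 1 lies in the stretch shown, and *Itgb5* held 3, of which 2 are shown. The *Lamb2* window held none, and 32.9% of the 27025 mouse promoters of the same length held at least 1. None of the windows of these 3 genes held the letters TGANTCA of AP-1 sites (6.87% of all promoters), GGANTTTCC of NF-kB sites (1.05%), the E-box CACGTG (6.05%) or the cAMP response element TGACGTCA (1.62%), on either strand. The GC content was 55.6% for *Itga5*, 65.2% for *Itgb5* and 43.6% for *Lamb2*, against a median of 52% over all promoters. A match of letters is no evidence that a factor binds there, and no match says only that these letters are not in this window.

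The level of the chains spanned more than 4 orders of magnitude. Of the 39 rows, 26 passed the filter of 1 TPM in 4 muscles, and 8 had a mean of 10 TPM or more over the 8 muscles. In order of mean TPM, which is scaled to transcript length, these were *Itgb1*, *Lamb2*, *Itgb5*, *Lamc1*, *Itga7*, *Itga5*, *Lamb1* and *Lama5*. Neighbours in this order often overlapped: the ranges of *Lamb2* (50.1–66.5 TPM) and *Itgb5* (45.7–67.0 TPM) overlapped widely, as did those of *Lamc1* (31.3–56.0 TPM) and *Itga7* (25.4–39.2 TPM), whereas *Itgb1* (104–143 TPM) stood above every other member in all muscles.

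**Figure D1:**
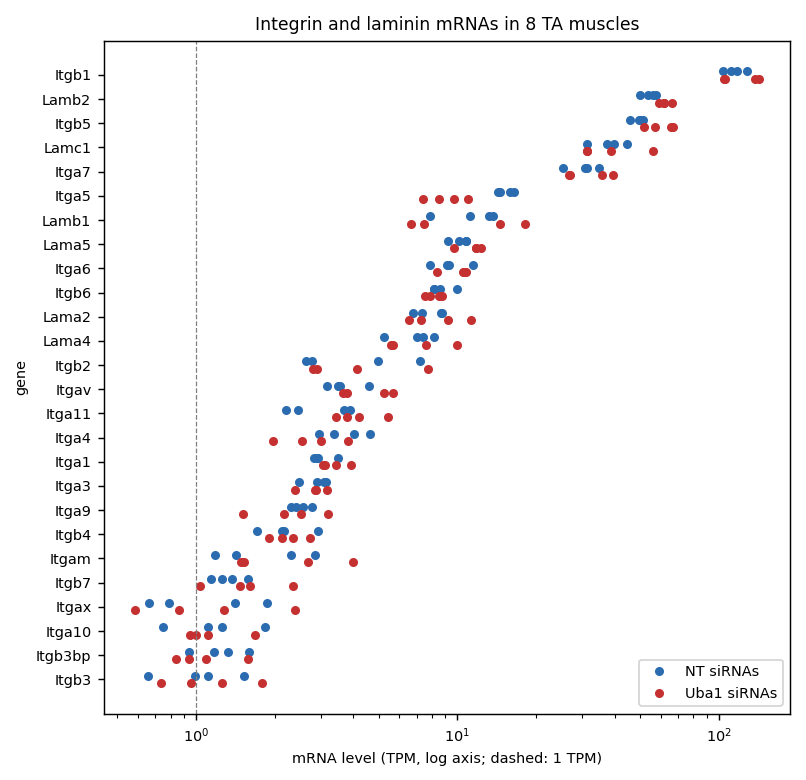
Level of the 26 integrin and laminin rows tested in each of the 8 muscles, in TPM on a log axis, with NT muscles in blue and *Uba1* muscles in red and genes ordered by mean. Among the genes plotted only *Itga5*, *Itgb5* and *Lamb2* show red points apart from the blue ones.

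No member passed an adjusted p of 0.05 in limma without a block, where 3 of all genes tested did (0.026%). With the mouse as a block 1 member did, *Itga5*, against 57 of all genes (0.494%). At an unadjusted P of 0.05 without the block, 2 of 26 members were higher in *Uba1* muscles, *Itgb5* and *Lamb2*, where 16% of all genes were higher. One member was lower, *Itga5*, where 1.98% of all genes were lower. With the block, 4 members were higher (22.4% of all genes) and 2 were lower (2.8% of all genes), adding *Itga11* and *Itgav* to the first and *Itga4* to the second. After median-ratio scaling no member was higher (4.43% of all genes) and 2 were lower, *Itga5* and *Itga4* (6.18% of all genes). The other 20 members tested had an unadjusted P of 0.05 or above with and without the block.

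Taken by groups, 1 of 26 members had every *Uba1* muscle below every NT muscle, where 1.01% of all genes did, and 2 had every *Uba1* muscle above, where 10.6% of all genes did. The median log2FC of the 26 members was 0.048, beside 0.11 for all genes, and 8 of the 26 had a log2FC above that of the median gene. In direction, 17 members had a log2FC above 0 and 9 below 0, but after median-ratio scaling only 9 were above 0, with a median of -0.049. The median of the members rested on single muscles: leaving out each muscle gave -0.038 to 0.13, and without the *Uba1* muscle of mouse 4 it was 0.133, beside 0.130 for all genes.

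**Figure D2:**
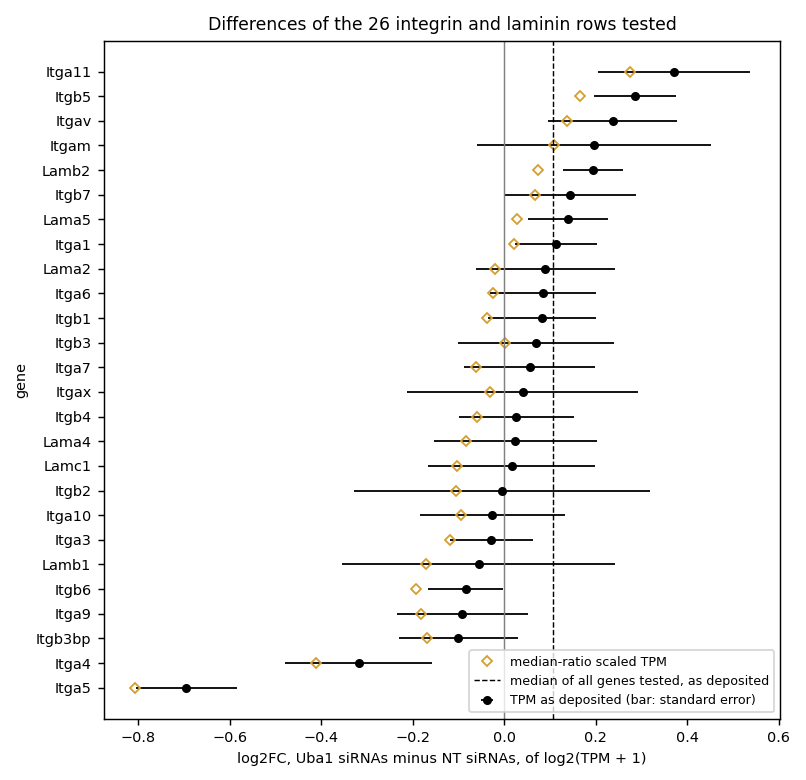
The log2FC of each of the 26 members tested, *Uba1* minus NT siRNAs on the log2(TPM + 1) scale, with the deposited TPM as black points (bars: standard error of limma, n = 4 muscles a group) and median-ratio scaled TPM as open diamonds. The dashed line is the median of all genes tested (0.11), and *Itga5* at -0.69 lies farthest from it.

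The clearest difference was in *Itga5*, at chr15:103252713-103275270 on the minus strand, which encodes the alpha 5 chain of the fibronectin receptor alpha 5 beta 1. It was at 14.3, 16.4, 15.8 and 14.6 TPM in the NT muscles of mouse 1 to 4 and at 9.67, 7.40, 11.0 and 8.50 TPM in their *Uba1* muscles. The highest *Uba1* muscle was below the lowest NT muscle, and the *Uba1* muscle held 67.6%, 45.0%, 69.6% and 58.1% of the TPM in the other leg of the same mouse.

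Group means of *Itga5* were 15.3 ± 1.01 (SD, n = 4) and 9.15 ± 1.56 TPM, a log2FC of -0.69 (SE 0.110). The adjusted p was 0.0644 in limma without the block, just above the threshold, and 0.0478 with it. It was 0.0102 after median-ratio scaling, 0.00753 after quantile normalization and 0.0180 with mitochondrial genes left out. Over all 17 alternatives the log2FC stayed between -0.81 and -0.61 and the adjusted p of limma ran from 0.00753 to 0.264, with 5 of the 17 under 0.05.

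Measured against other chains of the same muscle, which removes any scaling, *Itga5* was also lower in *Uba1* muscles. It made up 17.2–20.6% of the summed TPM of all integrin alpha chains in NT muscles and 10.9–12.7% in *Uba1* muscles. The ratio of *Itga5* to *Itgb1*, its beta partner, was 0.122–0.148 in NT and 0.0704–0.0804 in *Uba1* muscles, and its ratio to *Itga7* was 0.454–0.577 and 0.247–0.316. None of these ranges overlapped. A ratio within a muscle shows unequal change and does not tell which of both genes differed.

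**Figure D3:**
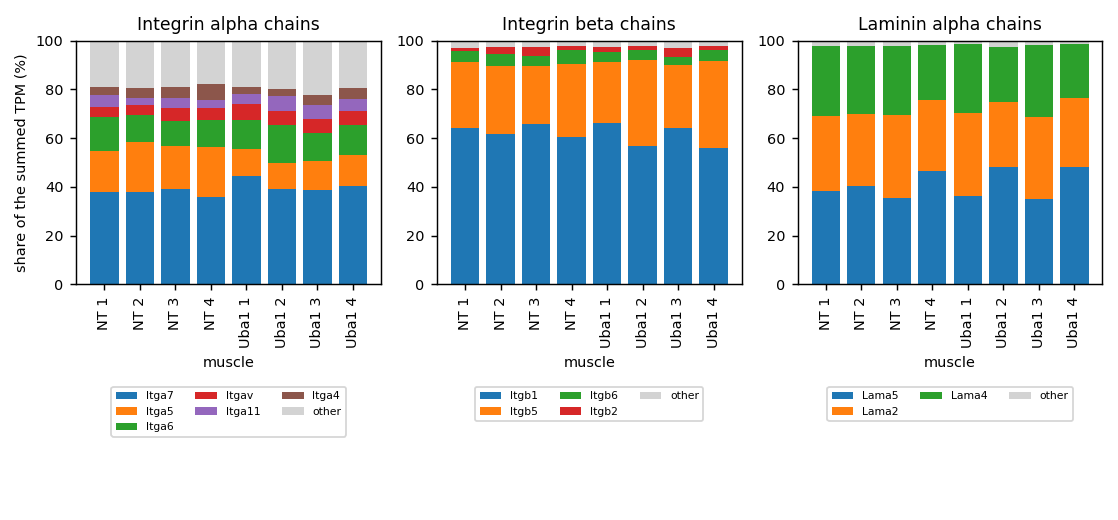
Share of each chain in the summed TPM of the integrin alpha, integrin beta and laminin alpha chains, in percent, as stacked bars for each muscle (NT 1–4 and *Uba1* 1–4). The *Itga5* part of the alpha chains is 17.2–20.6% in NT and 10.9–12.7% in *Uba1* muscles, whereas the parts of *Itgb1* and *Itgb5* and of the laminin alpha chains overlap between the groups.

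Alpha 5 is made by many cell types of muscle, including endothelial cells, fibroblasts and macrophages. The summed TPM of 8 endothelial markers was 142–214 in NT and 161–204 in *Uba1* muscles, that of 8 mural cell markers 254–398 and 284–309, and that of 8 markers of fibro-adipogenic progenitors 235–345 and 263–439. The 19 leukocyte markers summed to 275, 357, 569 and 205 TPM in NT muscles of mouse 1 to 4 and to 443, 200, 620 and 229 TPM in *Uba1* muscles. All 4 sums thus overlapped between the groups, and within the *Uba1* group the order of the muscles by *Itga5* (mouse 2, 4, 1, 3) was the order by leukocyte markers, whereas in the NT group the orders differed (mouse 1, 4, 3, 2 by *Itga5* and 4, 1, 2, 3 by leukocyte markers). At an unadjusted P of 0.05 in limma with the block, 2 of the 8 progenitor markers were higher, *Lum* and *Pdgfra* (22.4% of all genes). Of the 8 mural markers 1 was lower, *Tagln* (2.8% of all genes), and of the 8 endothelial markers 0 passed. The part of these cells in the *Itga5* values was not tested.

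*Itgav*, the alpha V chain that pairs with several beta chains to bind vitronectin and other RGD ligands, was at 3.48, 3.19, 4.61 and 3.56 TPM in NT and 5.65, 3.79, 5.24 and 3.65 TPM in *Uba1* muscles. It was higher in the *Uba1* leg of all 4 mice, although the groups overlapped. Its log2FC was 0.24 (SE 0.141), with an unadjusted P of 0.127 in limma without and 0.0453 with the block (adjusted p 0.191), and after median-ratio scaling it was 0.14 (unadjusted P = 0.237). Mouse 1 had the largest difference between its legs (0.57 on the log2 scale, against 0.029–0.20 in the other mice), and without its *Uba1* muscle the log2FC of *Itgav* was 0.15. As a share of the alpha chains it was 3.93–5.16% in NT and 5.46–6.42% in *Uba1* muscles, without overlap, but this share moves also with *Itga5*, the second largest of the alpha chains in NT muscles. Of the other RGD-binding alpha chains, *Itga8* and the platelet chain *Itga2b* stayed below 1 TPM in every muscle.

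*Itgb5* at chr16:33649988-33771137 on the plus strand encodes beta 5, which pairs with alpha V in a vitronectin receptor. It was at 49.5, 50.2, 45.7 and 51.3 TPM in NT muscles and at 52.0, 65.8, 56.9 and 67.0 TPM in *Uba1* muscles. Every *Uba1* muscle was above every NT muscle, but those of mouse 2 and mouse 4 stood well above the other two, and that of mouse 1 was only just above the NT range. The log2FC was 0.29 (SE 0.0896), with an adjusted p of 0.182 in limma without and 0.107 with the block.

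Scaling lowered the log2FC of *Itgb5* to 0.17, with an unadjusted P of 0.227 in limma. Its share of the beta chains was 23.5–29.9% in NT and 25.0–35.5% in *Uba1* muscles, and its ratio to *Itgb1* was 0.357–0.495 and 0.378–0.633, so both overlapped. The *Uba1* muscles of mouse 2 and mouse 4 were also those with the highest share of mitochondrial RNA (50.3% and 46.5%) and the highest sum of 8 osteoblast and bone markers, at 56.7 and 57.2 TPM against 10.5–27.9 TPM in all other muscles. They also had the lowest sum of 12 myofiber markers, at 119000 and 140300 TPM against 150500–168200 TPM in the other muscles. The part of any of these in the *Itgb5* values was not tested.

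*Lamb2* at chr9:108356935-108367729 on the plus strand encodes laminin beta 2, the beta chain enriched in the synaptic basement membrane of the neuromuscular junction. It was at 50.1, 57.6, 55.9 and 53.8 TPM in NT and 61.7, 59.3, 66.5 and 61.8 TPM in *Uba1* muscles. The *Uba1* muscles again lay above all NT muscles, with a gap of less than 2 TPM between the lowest *Uba1* and the highest NT muscle, both of mouse 2. The log2FC was 0.19 (SE 0.0659), with an adjusted p in limma of 0.197 without and 0.151 with the block, and after median-ratio scaling it was 0.075 (unadjusted P = 0.276).

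**Figure D4:**
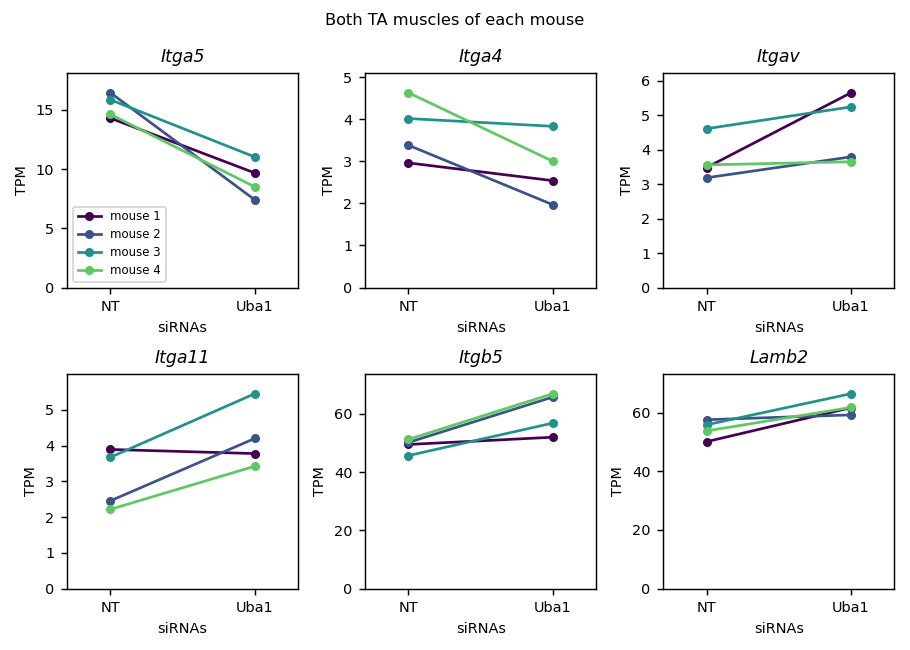
TPM of the 6 members with an unadjusted P under 0.05 in limma with or without the block, with a line joining the NT and the *Uba1* muscle of each of the 4 mice. The lines of *Itga5* and *Itga4* point down in all mice and those of *Itgav*, *Itgb5* and *Lamb2* point up in all mice, whereas *Itga11* points up in 3 of 4.

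Among the alpha chains that bind laminin, *Itga7* was at 31.3, 30.9, 34.9 and 25.4 TPM in NT muscles and 39.2, 26.7, 35.7 and 26.9 TPM in *Uba1* muscles, a log2FC of 0.06 (SE 0.143). The groups overlapped, and it was higher in the *Uba1* leg of 3 of 4 mice. It was the highest alpha chain in every muscle, with 35.7–39.1% of the alpha chain TPM in NT and 38.5–44.6% in *Uba1* muscles. *Itga6*, found on vessels and nerve, was at 9.46 ± 1.49 and 10.1 ± 1.13 TPM, and *Itga3* at 2.90 ± 0.303 and 2.83 ± 0.323 TPM. None of the 3 had an unadjusted P under 0.05.

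The partner of all of these, *Itgb1*, was at 118, 111, 128 and 104 TPM in NT muscles and 138, 105, 143 and 106 TPM in *Uba1* muscles. Groups overlapped, with a log2FC of 0.08 (SE 0.119) and an adjusted p of 0.708 in limma. With each muscle left out the log2FC was 0.0055 to 0.15. *Itgb1* held 60.4–65.9% of the beta chain TPM in NT and 56.1–66.1% in *Uba1* muscles. Beta 4, which pairs with alpha 6 in epithelia and nerve sheath, was low, with *Itgb4* at 2.24 ± 0.508 and 2.29 ± 0.354 TPM.

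Of the collagen-binding alpha chains, *Itga11*, typical of fibroblasts, was at 3.89, 2.45, 3.67 and 2.22 TPM in NT and 3.78, 4.20, 5.45 and 3.42 TPM in *Uba1* muscles. It was higher in the *Uba1* leg of 3 of 4 mice, and the groups overlapped. The log2FC of 0.37 (SE 0.166) was the highest among the members. Its unadjusted P in limma was 0.0518 without and 0.0113 with the block, with adjusted p of 0.281 and 0.124. Over the 16 alternatives that hold this gene the log2FC ran from 0.25 to 0.47. The part of fibroblasts in the *Itga11* values was not tested. *Itga1* was at 3.04 ± 0.312 and 3.37 ± 0.391 TPM, *Itga10* at 1.24 ± 0.451 and 1.19 ± 0.336 TPM, and *Itga2* below 0.47 TPM in every muscle.

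*Itga4*, the alpha 4 chain of leukocytes and of muscle progenitors that binds VCAM1 and fibronectin, was at 2.96, 3.38, 4.02 and 4.63 TPM in NT muscles and 2.54, 1.97, 3.83 and 3.00 TPM in *Uba1* muscles. It was lower in the *Uba1* leg of all 4 mice, with overlap between the groups. The log2FC was -0.32 (SE 0.161), with an unadjusted P of 0.0783 in limma without and 0.0168 with the block and adjusted p of 0.320 and 0.138. After median-ratio scaling it was -0.41 with an unadjusted P of 0.0213, and without the *Uba1* muscle of mouse 2 it was -0.20. *Itga9*, a tenascin and VCAM1 receptor chain, was at 2.51 ± 0.208 and 2.35 ± 0.703 TPM.

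The leukocyte chains spread more within each group than between the group means. *Itgb2* encodes a beta chain of leukocyte integrins. It was at 2.78, 4.95, 7.20 and 2.64 TPM in NT muscles and 4.13, 2.91, 7.70 and 2.80 TPM in *Uba1* muscles. *Itgam*, the alpha M chain of macrophages and neutrophils, was at 1.43, 2.31, 2.85 and 1.18 TPM in NT and 2.68, 1.49, 4.00 and 1.53 TPM in *Uba1* muscles. Both were highest in mouse 3 in either leg, as was *Itgax*, which marks dendritic cells (1.86 and 2.40 TPM there).

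The log2FC of *Itgb2* was -0.0048 (SE 0.323) and that of *Itgam* 0.20 (SE 0.256), with adjusted p in limma of 0.995 and 0.677. In both groups mouse 3 also had the highest summed leukocyte markers (569 and 620 TPM). Of the 13 leukocyte markers tested 0 passed an unadjusted P of 0.05 in limma without the block. Of all genes, 16% were higher and 1.98% lower there. With the block 1 marker passed, *S100a8*, which was higher, where 22.4% of all genes were higher and 2.8% lower. The lymphocyte chain *Itgal* was at 0.381–1.06 TPM and *Itgae* at 0.0862–0.355 TPM. *Itgb7*, the other beta chain of lymphocytes, was at 1.34 ± 0.188 and 1.62 ± 0.543 TPM.

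**Figure D5:**
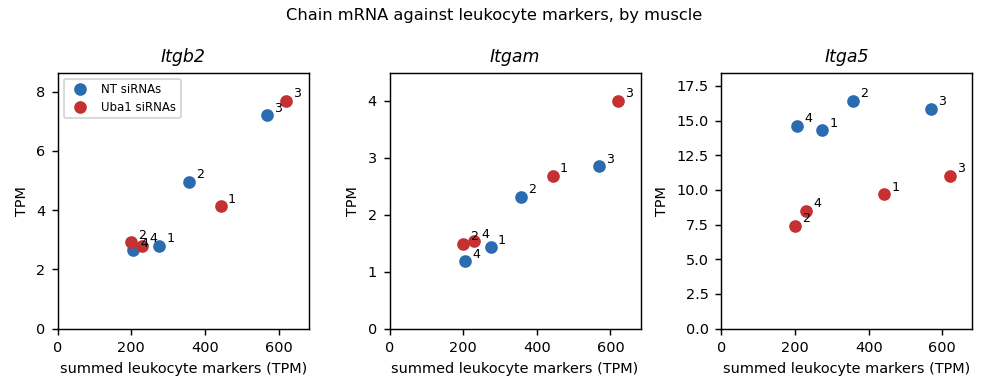
TPM of *Itgb2*, *Itgam* and *Itga5* in each muscle against the summed TPM of the 19 leukocyte markers, with NT muscles in blue and *Uba1* muscles in red and the mouse number beside each point. *Itgb2* and *Itgam* run with the marker sum in both groups. All *Itga5* points of *Uba1* muscles (7.40–11.0 TPM) lie below all those of NT muscles (14.3–16.4 TPM). No adjustment for the marker sum was made.

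The remaining beta chains were low. *Itgb6*, known from epithelia, was at 8.72 ± 0.880 TPM in NT and 8.16 ± 0.580 TPM in *Uba1* muscles, with a log2FC of -0.08 (SE 0.0829). The epithelial keratins *Krt5* and *Krt14* were listed at 0 in all 8 muscles, although other epithelial markers summed to 0.487–13.8 TPM. *Itgb3*, of platelets and vessels, was at 1.07 ± 0.361 and 1.19 ± 0.458 TPM, and *Itgb3bp* at 1.26 ± 0.272 and 1.11 ± 0.328 TPM. *Itgb8* stayed below 0.42 TPM.

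Among the laminin alpha chains, *Lama5*, a chain of vessels and the synapse, was the highest on average, at 10.8, 10.2, 9.18 and 10.8 TPM in NT and 9.70, 11.8, 11.8 and 12.3 TPM in *Uba1* muscles. The *Uba1* muscles of mouse 2, 3 and 4 were above all NT muscles and that of mouse 1 was within their range. Its log2FC was 0.14 (SE 0.0873), with an adjusted p of 0.397 in limma, and over all 17 alternatives it ran from 0.028 to 0.21.

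*Lama2*, the chain of the myofiber basement membrane, was at 8.64, 7.35, 8.70 and 6.78 TPM in NT and 9.22, 6.55, 11.3 and 7.25 TPM in *Uba1* muscles, with a log2FC of 0.09 (SE 0.152). *Lama4* was at 6.94 ± 1.22 and 7.19 ± 2.06 TPM. As shares of the laminin alpha TPM, *Lama2* held 30.7 ± 2.10% and 30.8 ± 3.76%, *Lama5* 40.2 ± 4.58% and 41.9 ± 7.20%, and *Lama4* 27.0 ± 2.93% and 25.7 ± 3.81%, and each overlapped between the groups. *Lama1*, an embryonic chain, was at most 0.0143 TPM, and *Lama3* of epithelia at 0.341–0.596 TPM.

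*Lamb1* was at 13.2, 11.2, 13.7 and 7.87 TPM in NT and 14.6, 7.47, 18.1 and 6.65 TPM in *Uba1* muscles. Groups overlapped, with a log2FC of -0.06 (SE 0.299), and the highest value of either group was in mouse 3. *Lamb2* made up 78.3–86.7% of the beta chain TPM in NT and 77.8–89.7% in *Uba1* muscles, so its higher level did not come with a beta chain share outside the NT range in every muscle. The ratio of *Lamb2* to *Lamb1* was highest in mouse 4 in both legs, at 6.84 and 9.30.

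*Lamc1*, the gamma chain of nearly all muscle laminins, was at 39.6, 37.2, 44.5 and 31.3 TPM in NT and 38.9, 31.5, 56.0 and 31.4 TPM in *Uba1* muscles, a log2FC of 0.02 (SE 0.182). It made up at least 96.6% of the gamma chain TPM in every muscle. *Lamb3*, a beta chain of epithelia, was at 0.406–0.840 TPM, and *Lamc3* at 0.261–0.477 TPM.

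The 13 members under the filter all had a mean below 1 TPM, overlapped between the groups and were not tested. Among them were *Itga2*, *Itga2b*, *Itga8*, *Itgad*, *Itgae*, *Itgal*, *Itgb2l*, *Itgb8*, *Lama1*, *Lama3*, *Lamb3* and *Lamc3*. The leukocyte gene *Itgad* and *Itgb2l* were listed at 0 in some muscles, and with *Lama1* they stayed below 0.02 TPM.

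Both muscles of mouse 3 were often the highest. The highest NT and the highest *Uba1* muscle came from the same mouse for 10 of 26 members (38.5%, against 36.4% of all genes), and for 9 members this was mouse 3 (34.6%, against 18.6% of all genes). These 9 were *Itgb1*, *Itgb2*, *Itgb3*, *Itgam*, *Itgax*, *Itga9*, *Lama2*, *Lamb1* and *Lamc1*. The lowest muscles came from the same mouse for 34.6% of members and 36.6% of all genes. With the block the standard error of the log2FC was smaller for 22 of 26 members. Its median ratio to that without the block was 0.678, and for *Lamb1* the standard error was 0.141 in place of 0.299. Over all genes, calls at an unadjusted P of 0.05 in limma also rose with the block. They went from 16% to 22.4% higher and from 1.98% to 2.8% lower.

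Inside the cell, integrin tails bind talin, kindlin, integrin-linked kinase and other adaptors that lead to actin. Of 26 adaptor genes 23 were tested, and none passed an adjusted p of 0.05 with or without the block. At an unadjusted P of 0.05 in limma without the block 3 were higher (16% of all genes) and 2 lower (1.98% of all genes), and with it 5 and 2 (22.4% and 2.8% of all genes). The median log2FC was 0.081. Median-ratio scaling turned this to -0.019, with 1 gene higher (4.43% of all genes) and 4 lower (6.18%). *Bcar1*, which encodes the scaffold p130Cas, was at 10.9, 11.5, 9.70 and 11.0 TPM in NT and 8.39, 7.93, 7.16 and 8.25 TPM in *Uba1* muscles, without overlap, with a log2FC of -0.39 and an adjusted p of 0.111 without and 0.0560 with the block.

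The other adaptor that was lower, *Zyx* for zyxin, was at 15.8 ± 2.03 and 12.6 ± 1.25 TPM (log2FC -0.30). The 3 that were higher without the block were *Lims1* for PINCH1, at 14.5 ± 1.39 and 19.4 ± 3.38 TPM, *Tns1* for tensin 1, at 50.5 ± 5.17 and 60.0 ± 4.69 TPM, and *Parvb* for beta-parvin, at 38.5 ± 3.78 and 46.4 ± 4.48 TPM. The most abundant adaptors were *Itgb1bp2*, which encodes the muscle protein melusin, at 178 ± 21.9 and 163 ± 52.1 TPM, and *Fermt2* for kindlin-2, at 75.6 ± 2.28 and 74.0 ± 5.08 TPM. Neither had an unadjusted P under 0.05.

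Dystroglycan is the other laminin receptor of the myofiber, and 23 of 25 genes of its complex and of its glycosylation were tested. None passed an adjusted p of 0.05. At an unadjusted P of 0.05 in limma 3 were higher and 0 lower without the block, where 16% and 1.98% of all genes were, and the median log2FC was 0.081. After median-ratio scaling 1 was higher (4.43% of all genes), 1 was lower (6.18%) and the median was -0.027. Of the higher genes, *Nos1*, the nitric oxide synthase held at the complex, was at 27.3 ± 3.36 and 38.0 ± 9.07 TPM, and *Pomt1*, an enzyme that starts the sugar chain, at 3.77 ± 0.357 and 4.55 ± 0.490 TPM. *Sgca* for alpha-sarcoglycan, among the most abundant genes of the complex, was at 174 ± 8.33 and 184 ± 15.2 TPM and had an unadjusted P above 0.05 in limma.

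Of 22 genes for other basement membrane proteins 15 were tested, none of which passed an adjusted p of 0.05, and the median log2FC was 0.059. Without the block *Fbln1*, for the matrix protein fibulin 1, was the 1 gene of 15 with an unadjusted P under 0.05 in limma (16% of all genes were higher), at 3.60 ± 1.64 and 5.45 ± 0.412 TPM. With the block there were 3, *Fbln1*, *Npnt* for nephronectin and *Sparc*, all higher (22.4% of all genes), and after median-ratio scaling 0 (4.43% of all genes), with a median log2FC of -0.046. The collagen IV chain gene *Col4a1* was at 94.2 ± 22.8 and 93.1 ± 31.4 TPM, and *Sparc*, for a collagen-binding matrix protein, at 290 ± 68.4 and 340 ± 73.0 TPM.

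The 27 integrin ligands outside the basement membrane held the gene with the clearest difference. *Icam1*, the ligand of the *Itgb2* integrins on leukocytes, was at 17.1, 14.1, 13.6 and 18.9 TPM in NT muscles and fell to 3.90, 2.74, 4.20 and 5.83 TPM in *Uba1* muscles. All *Uba1* muscles were far below all NT muscles, with a log2FC of -1.73 (SE 0.176) and an adjusted p of 0.0128 in limma without and 0.00352 with the block. It was the one gene of the 4 lists that passed, with and without the block. Leaving out the NT muscle of mouse 2 or 4 or the *Uba1* muscle of mouse 1 or 3 gave *Icam1* an adjusted p in limma of 0.0575 to 0.105.

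Of the 20 ligands tested, 5 were higher and 3 lower at an unadjusted P of 0.05 in limma without the block, where 16% and 1.98% of all genes were, and 9 and 2 with it (22.4% and 2.8% of all genes). The median log2FC was 0.25, and after median-ratio scaling it was 0.13, with 3 genes higher and 3 lower (4.43% and 6.18% of all genes). *Vcam1*, the ligand of alpha 4 beta 1, was at 3.89, 3.09, 3.93 and 3.27 TPM in NT and 2.12, 1.42, 2.77 and 2.33 TPM in *Uba1* muscles, without overlap, with a log2FC of -0.54 and an adjusted p of 0.150 in limma. The matrix genes *Thbs2* and *Tnn*, for thrombospondin 2 and tenascin N, were at 5.20 ± 1.82 and 11.5 ± 2.31 TPM and at 1.50 ± 1.43 and 6.21 ± 3.80 TPM. In *Uba1* muscles both were highest in mouse 2 and mouse 4, which also had the highest bone markers. Fibronectin itself, the ligand of alpha 5 beta 1, was at 37.0 ± 12.8 TPM in NT and 44.0 ± 20.7 TPM in *Uba1* muscles for *Fn1*, while the collagen chain genes *Col1a1* and *Col3a1* were at 220 ± 94.2 and 312 ± 82.7 TPM and at 263 ± 101 and 322 ± 143 TPM.

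The tissue label held in all muscles, with 12 of 12 myofiber markers past the filter and a sum of 150500–166300 TPM in NT and 119000–168200 TPM in *Uba1* muscles. The other marker sums also overlapped between NT and *Uba1* muscles, with satellite cell markers at 37.9–57.9 and 37.5–72.5 TPM, tendon markers at 45.5–126 and 92.2–114 TPM, Schwann cell markers at 76.4–109 and 57.7–121 TPM and platelet markers at 9.44–18.9 and 7.97–17.6 TPM. Bone markers were at 10.5–23.5 TPM in NT and 16.1–57.2 TPM in *Uba1* muscles, and 3 of the 4 bone markers tested were higher at an unadjusted P of 0.05 in limma, as were 16% of all genes.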

How the data were processed

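Total RNA of whole TA muscles was sequenced by the authors after library preparation with a TruSeq kit. After trimming and alignment to the GRCm39 build in CLC Genomics Workbench, the authors deposited for each gene and muscle a TPM, the transcript level scaled to length and to the library total. The annotation and the handling of reads that match several genes are not given in the sources used here. TPM keep no read depth, so no counting error could be given.

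Genes that reached 1 TPM in 4 of the 8 muscles were tested on log2(TPM + 1) with limma (v3.58.1, R v4.3.3, empirical Bayes with a trend, two-sided), with Benjamini–Hochberg adjustment over all genes tested and a threshold of 0.05. A log2FC on this scale understates differences of low genes. The 4 NT and 4 *Uba1* muscles were compared without a block, and with the mouse as a block as an alternative. The animal number in the titles gives the pairing, and deviations from the group means correlated by -0.00037, 0.20, 0.58 and 0.54 within mouse 1 to 4. The step was tested on simulated data. Members with an unadjusted P under 0.05 in either fit, the highest member of each role and the chains of muscle laminins and their receptor were named with all values, and of each partner list the genes with the smallest unadjusted P and the highest level. Members and lists were chosen with earlier results of these data known. Alternatives were another pseudocount, other filters, median-ratio scaling, quantile normalization, leaving out mitochondrial genes, the Kruskal–Wallis test and leaving out each muscle. Positions come from GENCODE M39 and promoters from RefSeq. Some genes of the set and the lists are counted but their values are not reported here.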

Additional observations from a re-analysis of the deposited data

Results flagged for a closer look

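The 26 members tested and *Uba1* were searched in both groups for a muscle that stands apart, which made 54 groups of 4 muscles. About 1 in 20 groups is found by chance, or 2.7 groups, and 2 were found. *Itga1* was at 3.50 TPM in the NT muscle of mouse 1, with 2.82–2.93 TPM in the other NT muscles. *Itga6* was at 8.37 TPM in the *Uba1* muscle of mouse 4, with 10.5–10.8 TPM in the other *Uba1* muscles.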

How the results depend on the processing

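Of 553 values of the 33 named genes under the alternatives, 512 kept their direction and side of the threshold, 7 passed it, 6 no longer did and 28 over 9 genes changed sign. With the replicate block, 1 member passed the adjusted p, 4 were higher and 2 lower at an unadjusted P of 0.05, and the *Uba1* log2FC of -1.98 passed. Median-ratio scaling and quantile normalization each gave 1 member past the adjusted p, 0 higher and 2 lower, and leaving out mitochondrial genes gave 1, 4 higher and 1 lower. The block with scaling gave 1, 0 higher and 3 lower. Past the adjusted p were 57 of all genes with the block, 23 with scaling and 28 with quantile normalization. Without mitochondrial genes 13 of all genes were past it, and with the block and scaling 76. Of all genes, 4.45% were higher and 5.16% lower with quantile normalization, 22% and 2.03% without mitochondrial genes, and 6.96% and 8.76% with the block and scaling. Leaving out each muscle gave 0, with 2 to 4 higher (4 without NT replicate 3) and 1 to 2 lower (2 without NT replicate 1 or *Uba1* replicate 3), where 10% to 17.7% and 1.52% to 2.45% of all genes were. Of the partner genes, 0 passed with no filter or the Kruskal–Wallis test, where 3 and 0 of all genes did. With the block and scaling 3 passed, *Icam1*, *Bcar1* and *Vcam1*, against 76 of all genes. With each muscle left out 0 to 1 passed, against 2 to 39 of all genes. *Icam1* missed the threshold without NT replicate 2 or 4 or *Uba1* replicate 1 or 3 (adjusted p of limma up to 0.105).

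The *Uba1* log2FC passed the threshold at -1.98 when genes under a mean of 5 TPM were left out, -2.09 with scaling, with or without the block, -2.06 with quantile normalization and -1.996 without mitochondrial genes. With each muscle left out it was -2.18 to -1.64, with the adjusted p of limma between 0.00257 and 0.230.

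The sign of some small log2FC depended on the setting. With scaling, with or without the block, *Itga7* was at -0.063, *Itgb1* at -0.038, *Lama2* at -0.020, *Lamc1* at -0.10 and *Sgca* at -0.040. With quantile normalization *Itga7* was at -0.020, *Lama2* at -0.013 and *Lamc1* at -0.052. With each muscle left out the log2FC was -0.044 to 0.14 for *Itga7*, -0.0061 to 0.34 for *Itgam*, -0.038 to 0.20 for *Lama2*, -0.29 to 0.15 for *Lamb1*, -0.16 to 0.11 for *Lamc1*, -0.23 to 0.13 for *Col4a1* and -0.075 to 0.0011 for *Fermt2*. Apart from the scaling itself, the cause was not tested. Depth is not given by TPM, so what it limits cannot be stated, and 4 muscles a group limit the precision.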
